A study of Mus musculus with 131 samples.

Results

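*Gsn* and *Tmem86a* are 2 of the 24397 genes in the authors' expression table. They were chosen because their RNA was higher in hepatocytes that lack TET2 and TET3 than in injected controls. The differences between these genotypes in RNA are therefore given for both genes as a description with no test. Both genes were among the 11166 tested, those whose mean reached 1 FPKM in some condition. FPKM is fragments scaled by transcript length and library size, so levels of different genes can be set side by side.

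*Gsn* encodes gelsolin, which severs actin filaments and caps their growing ends in a calcium-dependent way. A cytoplasmic and a secreted plasma form are made from different starts of the same gene, and the plasma form clears actin released from damaged cells together with the vitamin D binding protein encoded by *Gc*. *Tmem86a* encodes a membrane protein of the lysoplasmalogenase family, whose members cleave the vinyl ether bond of lysoplasmalogens, and *Tmem86b* encodes its close relative. TET enzymes oxidize 5-methylcytosine to 5-hydroxymethylcytosine (5hmC), a step on the way to unmethylated cytosine.

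All mice were C57Bl. RNA was measured in sorted hepatocytes of wild-type (WT) mice at 1 week (1 library), 3 weeks (3) and 15 weeks (3), and of 15 week old injected mice. The injected mice had received AAV8 virus carrying Cre under the hepatocyte-specific Tbg promoter at 1 day or at 3 weeks after birth. They were controls, labelled WT (3 libraries for each time of injection), or Tet2 F/Tet3 F mice, in which the virus deletes both genes (DKO, 3 libraries injected at 1 day and 2 at 3 weeks). Methylation was read in 100 bp tiles by reduced representation bisulfite sequencing (RRBS) in hepatocytes of 2 WT mice of 3 weeks. RRBS also covered hepatocytes of 3 controls and 2 DKO mice for each time of injection. Hepatocytes of 2 mice whose insulin receptor was deleted after birth (InsR KO) were included. There were 2 cultures of newborn liver cells that were not sorted, labelled 1 week and grown for weeks before RRBS. Fat (25 weeks) and neutrophils (36 weeks), both labelled WT, had 1 sample each. Methylation was also read in 200 bp tiles by whole-genome bisulfite sequencing (WGBS). There was 1 library each of newborn WT, 15 week WT and 15 week DKO hepatocytes, the DKO mouse injected at 1 day. The newborn library is labelled 1 week, so it does not give the state at birth. Peaks of H3K27ac and H3K4me1 came from 1 library each of 15 week WT and DKO hepatocytes, the latter injected at 1 day. Peaks of open chromatin (ATAC-Seq) and of the liver transcription factor HNF6 came from 2 libraries of liver for each genotype, and peaks of 5hmC from 1 library of WT hepatocytes. The labels give these 3 assays no age. By the study's methods, ATAC-Seq was done on adult hepatocytes and the DKO mice were injected at 1 day, while the mice for 5hmC were near weaning and so younger than the adults whose tiles the 5hmC peaks are set beside. Nothing in the labels ties libraries to separate litters, so p-values measure the spread between these samples.

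The hepatocytes had been sorted by size and against the leukocyte antigen CD45, and the 10 hepatocyte markers summed to 12439 to 20774 FPKM in the 18 libraries. *Alb* is listed at 0 in 18 of 18 libraries, so a 0 in this table can be a failed estimate. *Tet2* stood at 4.08, 2.82 and 3.16 FPKM in DKO mice injected at 1 day and at 2.13, 1.63 and 0.890 in their controls, and *Tet3* was not called in either deletion contrast. Gene-level FPKM also counts the exons that the deletion leaves, so these values do not check the genotype. RRBS methylation averaged over all tiles was 60.1 to 60.3% in the DKO mice injected at 1 day, 59.0 to 59.1% in those injected at 3 weeks and 57.9 to 58.4% in the 6 controls, with no overlap between genotypes. In bulk libraries, fewer cells of a type and less RNA per cell cannot be told apart.

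Both genes lie on the plus strand of mm9. *Gsn* (ENSMUSG00000026879.7) spans chr2:35111879-35163422 in the expression table, with annotated transcript starts at 35111927, 35111938, 35135183 and 35137900. *Tmem86a* (ENSMUSG00000010307.5) spans chr7:54306010-54310146. With 10 kb on either side, the windows examined were chr2:35101879-35173422 and chr7:54296010-54320146. *Stom*, which encodes the membrane protein stomatin, runs into the *Gsn* window from the opposite strand, and no other gene overlaps the *Tmem86a* window.

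The sequences below are the 200 bases before each gene and the tiles on which the methylation results turn, from the plus strand of mm9, written 5′ to 3′ with each CpG in capitals. The upstream sequence of *Tmem86a* holds 20 CpG sites and that of *Gsn* 14, while the tiles inside *Gsn* hold between 1 and 3.
Before Gsn, chr2:35111679-35111878: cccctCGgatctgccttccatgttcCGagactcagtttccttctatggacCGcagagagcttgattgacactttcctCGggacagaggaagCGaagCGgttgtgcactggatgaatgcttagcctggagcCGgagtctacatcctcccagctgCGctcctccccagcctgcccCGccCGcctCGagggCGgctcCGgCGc
Before Tmem86a, chr7:54305810-54306009: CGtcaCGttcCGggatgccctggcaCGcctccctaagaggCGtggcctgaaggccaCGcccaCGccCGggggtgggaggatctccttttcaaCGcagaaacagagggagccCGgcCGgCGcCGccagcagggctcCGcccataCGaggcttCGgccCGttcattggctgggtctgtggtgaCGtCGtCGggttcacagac
Gsn intron, RRBS tile chr2:35126301-35126400: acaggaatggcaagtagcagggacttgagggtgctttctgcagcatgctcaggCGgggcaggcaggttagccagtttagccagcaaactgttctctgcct
Gsn intron, WGBS tile chr2:35131601-35131800: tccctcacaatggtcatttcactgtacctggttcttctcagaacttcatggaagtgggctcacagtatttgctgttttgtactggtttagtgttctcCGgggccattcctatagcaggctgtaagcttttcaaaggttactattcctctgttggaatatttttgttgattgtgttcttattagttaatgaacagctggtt
Gsn intron, WGBS tile chr2:35133401-35133600: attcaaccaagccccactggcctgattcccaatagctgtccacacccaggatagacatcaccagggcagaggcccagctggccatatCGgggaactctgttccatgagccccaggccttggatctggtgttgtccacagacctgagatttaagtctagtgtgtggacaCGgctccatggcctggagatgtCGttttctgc
Upstream of Tmem86a, WGBS tile chr7:54297601-54297800: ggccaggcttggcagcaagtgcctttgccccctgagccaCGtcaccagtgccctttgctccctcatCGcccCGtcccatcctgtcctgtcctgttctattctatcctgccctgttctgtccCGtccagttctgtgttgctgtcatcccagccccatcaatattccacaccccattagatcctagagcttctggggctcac
The RRBS tile in *Gsn* has 1 CpG, so its methylation level is that of a single site.

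In WT hepatocytes both genes fell after the first weeks of life. *Gsn* stood at 44.7 FPKM in the library of 1 week, at 10.9, 3.44 and 9.96 FPKM at 3 weeks, and at 0.319, 0.111 and 0.236 FPKM at 15 weeks. The groups did not overlap. *Tmem86a* stood at 15.7 FPKM at 1 week, at 2.72, 2.52 and 3.84 FPKM at 3 weeks, and at 0.738, 0.649 and 1.04 FPKM at 15 weeks, again with no overlap.

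The comparison of 15 with 3 weeks asks how expression changed with age, and it was not used to choose the genes. On the log2(FPKM + 1) scale, which understates changes of low genes, *Gsn* fell by 2.78 (SE 0.27; limma, adjusted p = 4.55e-06) and *Tmem86a* fell by 1.15 (SE 0.22; limma, adjusted p = 0.00143). The mean FPKM at 15 weeks was 0.0274 of that at 3 weeks for *Gsn* and 0.268 for *Tmem86a*. Both were among the 1041 genes called lower, 9.32% of all tested, while 24.0% were called higher and 33.3% in all. The median over all genes was 0.15 on the log2(FPKM + 1) scale. After quantile normalization it was 0.00, and the share of calls that were higher went from 72.0 to 48.1%.

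The libraries of 3 and 15 weeks differed in other ways. The *Xist* RNA, transcribed from the inactive X chromosome, was at 48.0 to 77.1 FPKM in the 3 libraries of 3 weeks and at or under 0.0272 FPKM in those of 15 weeks, while the Y-linked *Ddx3y* was at or under 0.00764 and at 11.0 to 12.8 FPKM. The library of 1 week had *Xist* at 0.0609 and *Ddx3y* at 10.0 FPKM. Between 3 and 15 weeks, age and this difference cannot be told apart here. Control library 3 of those injected at 3 weeks also had *Xist* at 88.1 FPKM and *Ddx3y* at 0, and it had *Gsn* at 0.224 and *Tmem86a* at 0.443 FPKM, where the other 5 controls had 0.116 to 0.216 and 0.540 to 1.07.

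Markers of other liver cells also moved with age. All 10 tested Kupffer cell markers and all 10 tested endothelial markers were called lower at 15 weeks, beside 9.32% of all genes tested. The sums of the 13 Kupffer cell markers measured went from 11.5 to 28.7 down to 2.52 to 4.36 FPKM. Those of the 12 endothelial markers went from 21.1 to 38.9 down to 5.35 to 10.5 FPKM. The 15 stellate cell and fibroblast markers summed to 28.5 to 88.0 FPKM at 3 weeks and 18.7 to 40.0 at 15 weeks, so these ranges overlapped. In the library of 1 week, the 3 erythroid markers measured summed to 492 FPKM, against 5.35 to 70.5 in the others. Leukocyte markers summed to 43.8 FPKM there, against 0.0282 to 1.19, and cholangiocyte markers to 131, against 9.36 to 25.8. The part of these cells in the levels of *Gsn* and *Tmem86a* was not tested.

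Injected controls of 15 weeks stood near uninjected WT mice of that age, with 1 set of controls apart for *Tmem86a*. *Gsn* was at 0.116, 0.160 and 0.206 FPKM in controls injected at 1 day and at 0.210, 0.216 and 0.224 FPKM in those injected at 3 weeks. *Tmem86a* was at 0.549, 0.785 and 1.07 FPKM and at 0.593, 0.540 and 0.443 FPKM, in the same order. Every control injected at 3 weeks was thus below every uninjected WT library of 15 weeks (0.649 to 1.04 FPKM) for *Tmem86a*. The 9 libraries of these 3 conditions lay within 0.111 to 0.319 FPKM for *Gsn* and 0.443 to 1.07 FPKM for *Tmem86a*.

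In DKO hepatocytes of the same age both genes were higher, which is how they were chosen. *Gsn* was at 6.98, 9.80 and 9.35 FPKM after injection at 1 day and at 2.69 and 3.35 FPKM after injection at 3 weeks. *Tmem86a* was at 11.9, 17.6 and 20.6 FPKM after injection at 1 day and at 8.74 and 16.6 FPKM after injection at 3 weeks. No DKO library overlapped a control.

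The ratio of mean FPKM between DKO and controls was 54.4 for *Gsn* and 20.9 for *Tmem86a* after injection at 1 day, and 13.9 and 24.1 after injection at 3 weeks. On the log2(FPKM + 1) scale these differences were 3.05 and 3.28 at 1 day and 1.72 and 3.10 at 3 weeks. Ranked by this difference among the 11166 genes, *Gsn* was at 27 and *Tmem86a* at 25 for injection at 1 day, and they were at 34 and 12 for injection at 3 weeks. Of all genes tested, 4.33% were called higher and 15.6% lower in DKO mice injected at 1 day (20.0% in all), and 0.905% higher and 4.34% lower in those injected at 3 weeks (5.25% in all). The genes were chosen on this contrast, so nothing is read from these shares.

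**Figure D1:**
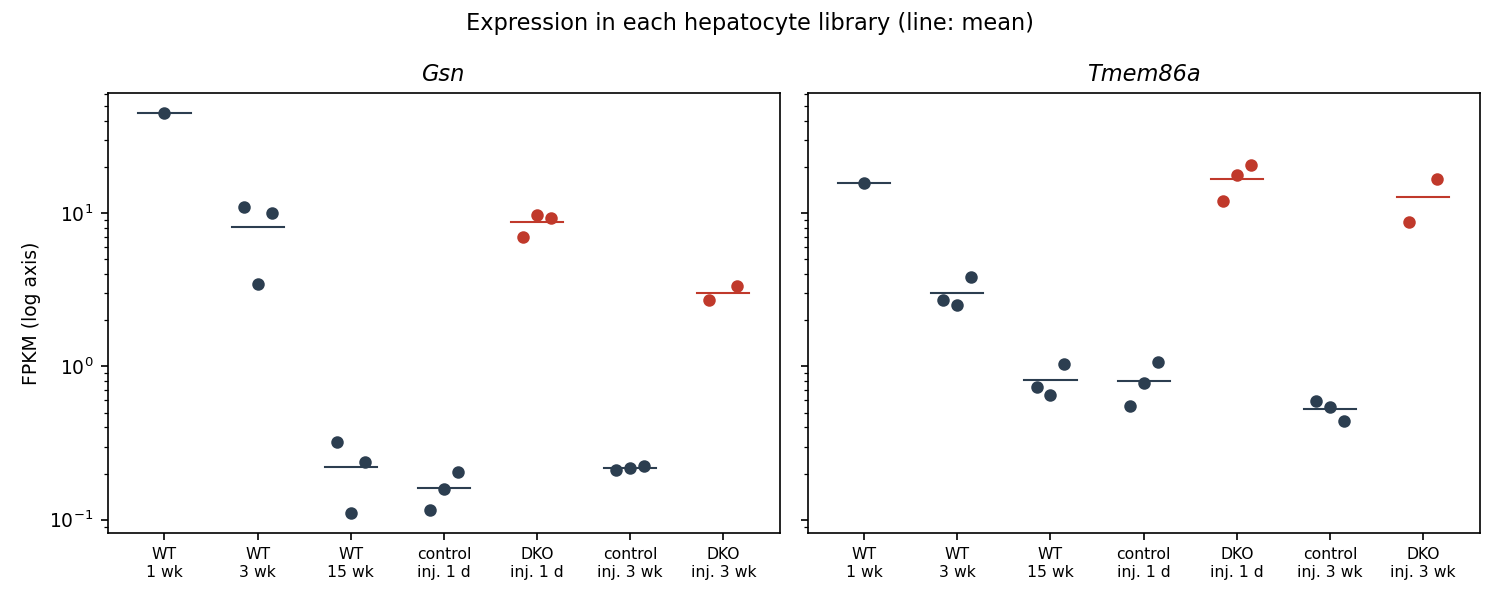
FPKM of *Gsn* (left) and *Tmem86a* (right) on a log axis in each of the 18 hepatocyte libraries, 1 point per library with the mean of each condition as a line. WT and injected control libraries are dark and DKO libraries red; the DKO libraries injected at 1 day lie at 6.98 to 9.80 FPKM for *Gsn* and 11.9 to 20.6 FPKM for *Tmem86a*, and the 9 libraries of WT and control mice of 15 weeks lie at or under 0.319 and 1.07 FPKM.

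Set in order of their means, the conditions ran differently for each gene. *Gsn* was highest at 1 week (44.7 FPKM), followed by DKO mice injected at 1 day (8.71 ± 1.52 FPKM, SD, n = 3) and WT at 3 weeks (8.11 ± 4.07, n = 3), which overlapped. DKO mice injected at 3 weeks followed at 3.02 ± 0.463 FPKM (n = 2), apart from both neighbours, and then WT at 15 weeks (0.222 ± 0.105, n = 3), controls injected at 3 weeks (0.217 ± 0.00729, n = 3) and controls injected at 1 day (0.160 ± 0.0450, n = 3). Of these last 3, WT at 15 weeks overlapped each set of controls, while every control injected at 3 weeks lay above every control injected at 1 day.

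For *Tmem86a* the highest levels were those of DKO mice injected at 1 day (16.7 ± 4.39 FPKM, SD, n = 3), WT at 1 week (15.7) and DKO mice injected at 3 weeks (12.7 ± 5.56, n = 2), which overlapped. WT at 3 weeks stood apart at 3.03 ± 0.712 FPKM (n = 3). Lower were WT at 15 weeks (0.810 ± 0.207), controls injected at 1 day (0.801 ± 0.261) and controls injected at 3 weeks (0.525 ± 0.0758), with 3 libraries in each. Controls injected at 1 day overlapped both of the others, while every control injected at 3 weeks lay below every WT library of 15 weeks. DKO mice injected at 3 weeks were thus below WT of 3 weeks for *Gsn* and above them for *Tmem86a*, with no overlap in either case.

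In DKO mice injected at 1 day 0 markers of other cell types were called higher, beside 4.33% of all genes tested. Limma called 0 of the 8 tested stellate cell and fibroblast markers, beside 20.0% of all genes, with 0 at an unadjusted p under 0.05. The 15 listed summed to 6.96 to 10.5 FPKM in these DKO mice and 6.17 to 24.8 in their controls. Kupffer cell markers summed to 3.44 to 7.34 against 9.60 to 16.8 FPKM. Endothelial markers summed to 7.18 to 11.3 against 10.1 to 16.6 FPKM, and these ranges overlapped. In each list 1 of 10 tested markers was called, lower in DKO, beside 15.6% of all genes called lower. *Alas2*, which encodes the erythroid enzyme of heme synthesis, had means of 12.6 and 58.3 FPKM and fell by 2.11 on the log2(FPKM + 1) scale (limma, adjusted p = 0.0134). After injection at 3 weeks the sums were 12.5 to 50.2 against 9.47 to 35.8 FPKM for stellate cell markers, 11.6 to 21.9 against 3.50 to 16.7 for Kupffer cell markers and 18.2 to 38.6 against 6.33 to 18.1 for endothelial markers. The endothelial ranges did not overlap at that time, with DKO higher. Limma called 1 of 10 tested endothelial markers higher and 1 of 4 cholangiocyte markers lower, beside 0.905% and 4.34% of all genes.

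Other genes were also lower with age and higher in DKO mice. With *Gsn* and *Tmem86a* left out, 123 (11.8%) of the 1039 genes called lower at 15 than at 3 weeks were called higher in DKO mice injected at 1 day, which is 25.6% of the 481 genes called higher there. Over all genes tested, 4.33% were called higher in DKO. The comparisons have no library in common, but both come from the same fit with a shared estimate of the spread. The sets of calls are therefore not independent.

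**Figure D2:**
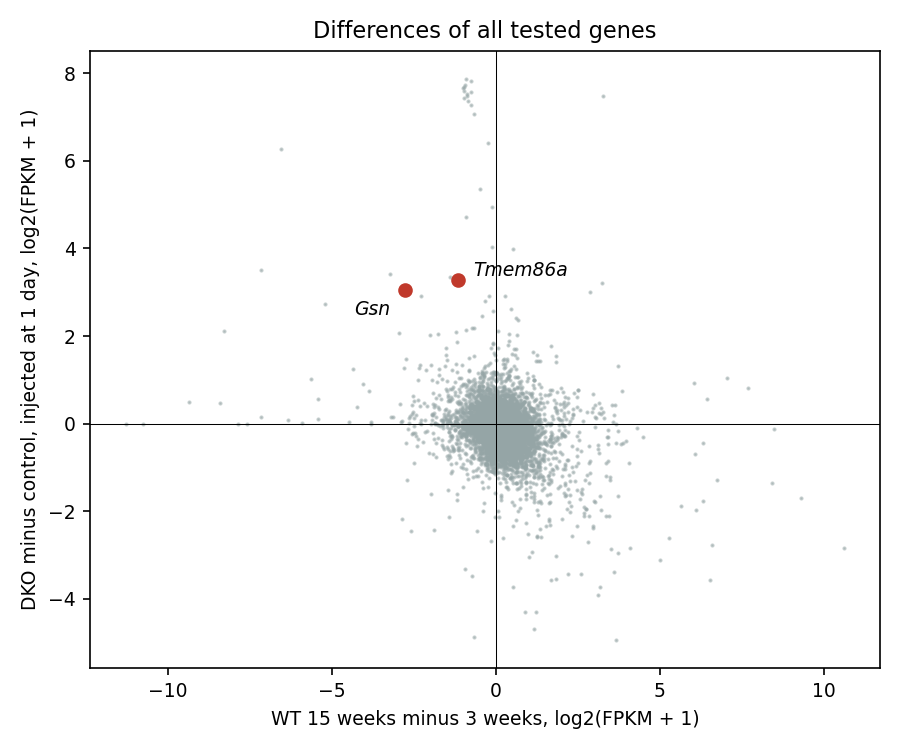
Difference in mean log2(FPKM + 1) between WT mice of 15 and 3 weeks (horizontal axis) and between DKO and control mice injected at 1 day (vertical axis), with 1 point for each of the 11166 genes tested. *Gsn* lies at -2.78 and 3.05 and *Tmem86a* at -1.15 and 3.28, both among genes lower with age and higher in DKO.

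The genes whose pattern was most like that of *Gsn* over the 18 libraries, by Pearson r of log2(FPKM + 1), were *Defb1* (r = 0.952), *Adrbk2* (0.942), *Pla1a* (0.936), *Rcn2* (0.933) and *Dfna5* (0.932). *Defb1*, which encodes an antimicrobial defensin, was at 16.9 FPKM at 1 week and averaged 8.95 at 3 weeks and 0.250 at 15 weeks. It averaged 6.19 FPKM in DKO mice and 0.640 in controls injected at 1 day, and 2.18 and 1.09 in those injected at 3 weeks. *Pla1a*, which encodes a phospholipase specific for phosphatidylserine, was the most abundant of the 5, at 50.6 FPKM at 3 weeks, 26.5 at 15 weeks, 44.3 in DKO mice injected at 1 day and 26.0 in their controls. The libraries share their conditions, so these correlations are a description.

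Those most like *Tmem86a* were copies of a dynein light chain gene, *Dynlt1b* (r = 0.956), 3 rows named *Dynlt1c* (0.950, 0.940 and 0.923) and *Dynlt1a* (0.936). These near-identical copies share reads, so they are uncertain and cannot be taken as separate genes. *Dynlt1b* averaged 3.47 FPKM in DKO mice injected at 1 day and 1.00 in their controls, and 4.44 and 0.907 in those injected at 3 weeks. *Apof*, which encodes apolipoprotein F, was the next gene with a common name (r = 0.904) and is named after its values were seen. It averaged 617 FPKM in DKO mice and 274 in controls injected at 1 day. *Gsn* was at rank 16 for *Tmem86a*, and *Tmem86a* at rank 79 for *Gsn* (r = 0.827).

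*Stom*, the neighbour of *Gsn*, was lower in the same DKO mice. It was at 8.05, 6.99 and 8.29 FPKM in DKO mice injected at 1 day and at 21.9, 19.3 and 20.5 in their controls, and fell by 1.30 on the log2(FPKM + 1) scale (SE 0.19; limma, adjusted p = 0.000574). After injection at 3 weeks it was at 20.5 and 20.2 against 19.3 to 19.5 FPKM (difference 0.06, limma, adjusted p = 0.886). The differences at the 2 times were themselves apart by -1.36 (interaction term in limma, adjusted p = 0.0322), which was called for 5.36% of all genes tested. With age it rose by 0.72 (limma, adjusted p = 0.0109), from a mean of 10.9 to 17.8 FPKM, where *Gsn* fell.

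Of the 8 genes of the gelsolin family, 4 were tested (*Gsn*, *Flii*, *Svil* and *Vill*), and *Vil1*, *Avil*, *Capg* and *Scin* were below the minimum of 1 FPKM. *Vill*, a villin-like member, fell with age by 1.51 on the log2(FPKM + 1) scale (limma, adjusted p = 5.66e-08), from a mean of 2.73 to 0.309 FPKM, and was not called in DKO. *Flii*, whose product also acts as a nuclear coactivator, differed by -0.42 in DKO mice injected at 1 day (limma, adjusted p = 0.0343), a call that was lost without any of the 3 DKO libraries and without control library 1 or 3. With age it was higher by 0.41 (limma, adjusted p = 0.0249), which was 0.15 and no longer called after quantile normalization. *Svil*, which encodes supervillin, was not called in any of the 3 comparisons. Of the 4, 2 fell and 1 rose with age, beside 9.32% and 24.0% of all genes tested. Of the 3 other than *Gsn*, limma called 1 lower and 0 higher after injection at 1 day, beside 15.6% and 4.33% of all genes, and 0 after injection at 3 weeks, where 0 had an unadjusted p under 0.05 and 5.25% of all genes were called. *Gc*, the partner of plasma gelsolin in actin clearance, was not called either, at means of 2368 FPKM at 3 weeks, 2566 at 15 weeks, 3750 in DKO mice injected at 1 day and 3321 in their controls.

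Other genes of actin filament turnover, 32 of 36 listed tested, were in part lower in DKO mice injected at 1 day. Of these, 16 fell and 0 rose, with a median of -0.38 on the log2(FPKM + 1) scale beside -0.11 over all genes tested. The 15.6% of all genes called lower is the background for that count. *Arpc1b*, a subunit of the Arp2/3 complex that nucleates branched filaments, had a mean of 4.84 FPKM in DKO and 9.64 in controls (-0.86; limma, adjusted p = 0.000846). *Pfn1*, which encodes the actin monomer-binding protein profilin, had 39.1 and 71.7 FPKM (-0.83; limma, adjusted p = 0.00805), and *Capzb*, a subunit of capping protein, had 14.9 and 26.4 FPKM (-0.78; limma, adjusted p = 0.00265). *Cfl1*, which encodes the filament-severing protein cofilin, had 38.2 and 64.1 FPKM (-0.71; limma, adjusted p = 0.0216).

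The count of 16 rests on single libraries. It was 5 without DKO library 1, 6 without DKO library 3, 10 without control library 1 and 5 without control library 3. After quantile normalization 11 fell and 0 rose. In these same libraries the Kupffer cell marker sums were lower in DKO and the endothelial sums overlapped, as given above. The part of these cells in the actin genes was not tested. After injection at 3 weeks 0 of the 32 were called, with limma, beside 5.25% of all genes, and 3 had an unadjusted p under 0.05. With age 4 rose and 3 fell, which is below the 33.3% called over all genes, and after quantile normalization 3 rose and 7 fell.

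Beside *Tmem86a*, 13 tested genes belong to ether lipid and plasmalogen metabolism, whose enzymes make or turn over the lipids that lysoplasmalogenases act on. In DKO mice injected at 1 day 2 of the 13 were higher and 4 lower, beside 4.33% and 15.6% of all genes tested, with a median of -0.03 beside -0.11 over all genes. The 2 were *Tmem86b* and *Far2*. *Tmem86b* was at 54.3, 71.5 and 50.5 FPKM in DKO mice and at 37.5, 34.5 and 43.5 in controls, without overlap, higher by 0.59 (SE 0.16; limma, adjusted p = 0.0214). *Far2*, a fatty acyl-CoA reductase that makes fatty alcohols for ether lipids, had means of 1.69 and 0.827 FPKM, higher by 0.58 (limma, adjusted p = 0.0202).

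The 4 that fell were *Tmem189*, now known as the desaturase that forms the vinyl ether bond (-0.76; limma, adjusted p = 0.00555), the phospholipase gene *Pla2g6* (-0.65; limma, adjusted p = 0.0185) and the peroxisomal import receptor genes *Pex5* (-0.57; limma, adjusted p = 0.0118) and *Pex7* (-0.55; limma, adjusted p = 0.0174). The count of 6 called was 2 without DKO library 1 and 3 without control library 3. The call of *Tmem86b* was lost without DKO library 2 and without control library 1 or 2, and that of *Far2* without DKO library 1 and without control library 1 or 3. *Pla2g6* and *Pex7* were not called without DKO library 1 or without control library 3, nor *Pex5* without DKO library 1. After quantile normalization 4 were higher and 3 lower. After injection at 3 weeks limma called 0 of the 13, beside 5.25% of all genes, with 3 at an unadjusted p under 0.05. *Tmem86b* was at 42.3 and 51.7 FPKM there, against 30.1 to 37.1 in controls, and was higher by 0.44 with no call (limma, adjusted p = 0.144). *Tmem86b* rose with age by 0.48 (limma, adjusted p = 0.0329), which was 0.19 and no longer called after quantile normalization. With age 5 of the 13 rose and 0 fell, beside 24.0% and 9.32% of all genes, and after quantile normalization 2 rose and 3 fell.

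Lipid genes around the lysoplasmalogenases were taken as 2 further lists, targets of the sterol receptor LXR and of the cholesterol regulator SREBP2. Of 14 tested LXR and sterol genes, 3 were higher and 1 lower in DKO mice injected at 1 day, beside 4.33% and 15.6% of all genes tested, with a median of 0.35 beside -0.11 over all genes. *Lpl*, which encodes lipoprotein lipase, had means of 22.0 FPKM in DKO and 2.54 in controls (2.74; limma, adjusted p = 5.76e-05), and the sterol exporter gene *Abcg5* was higher by 0.87 (limma, adjusted p = 0.0435). Quantile normalization called 6 higher and 1 lower, while with no filter on low values 1 of 16 was higher and 1 lower. Single libraries were not left out for this list. Of the SREBP2 targets, *Sc5d*, an enzyme of cholesterol synthesis, was higher in DKO mice injected at 1 day (0.66; limma, adjusted p = 0.0147). After injection at 3 weeks 0 of the LXR genes were called by limma (3 with an unadjusted p under 0.05), beside 5.25% of all genes. Of the 20 SREBP2 targets, 2 were called lower, beside 4.34% of all genes. These were *Lss* and *Sqle*, which fell by 0.80 and 1.18 (limma, adjusted p = 0.0403 and 0.0163). With age, 18 of the 20 SREBP2 targets rose, beside 24.0% of all genes tested, with a median of 2.15 beside 0.15 over all genes.

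By WGBS, methylation over the *Gsn* window was close in the 3 libraries, at means of 78.3% in newborn WT, 77.9% in adult WT and 78.9% in adult DKO over 291 tiles with a value in each. Adult DKO exceeded adult WT by at least 35 points, the limit used in the study, in 5 tiles (1.72%) and was lower by as much in 0. Over the whole genome the shares were 1.98% and 0.240%. Loss of at least 35 points from newborn to adult WT was seen in 2 tiles (0.687%, beside 1.63% over the genome), and both were among the 5 higher in DKO (1.15% of tiles over the genome met both limits, which is 70.6% of those lost and 58.2% of those higher in DKO). In 1 of the 291 tiles adult WT exceeded newborn by that limit, beside 0.262%. There is 1 library a condition, so these are values with no test, and the tables give no coverage.

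The tile at chr2:35133401-35133600, 21.6 kb into the gene, was methylated at 78.5% in newborn, 4.44% in adult WT and 79.3% in adult DKO. It is shown above with its 3 CpG sites. The tile at 35131601-35131800, with 1 CpG, had 57.9%, 14.3% and 64.5% in the same order, and that at 35132001-35132200 had 56.1%, 29.1% and 71.4%. These 3 tiles lie close together in an intron, and the adult WT value is the lowest in each.

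The other tiles higher in DKO lay apart. The tile at 35123401-35123600 had 28.9%, 27.3% and 74.3%, so it was low in newborn as well as adult WT. That at 35147601-35147800 had 44.1%, 11.9% and 48.4%. A tile at 35135401-35135600 gained methylation from newborn to adult WT (39.5%, 78.8% and 69.4%).

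Peaks placed the tile at 35133401-35133600 in open, marked chromatin in both genotypes. It overlapped ATAC-Seq peaks in 2 of 2 WT and 2 of 2 DKO libraries and lay in H3K27ac peaks of WT (35132767-35135018, 59.6 tags, scaled by the authors to a common library total) and DKO (35132691-35135264, 69.0). The H3K4me1 peak around it had 148.6 tags in WT (35131324-35136855) and 156.3 in DKO (35131478-35136345), more than 94.0% and 94.4% of the peaks of those lists. H3K4me1 and H3K27ac mark enhancers, the latter those that are active. The tiles at 35131601 and 35132001 lay in the same H3K4me1 peaks. An H3K27ac peak of WT alone (35131407-35132037, 8.66 tags) covered the tile at 35131601 and overlapped only the beginning of that at 35132001. Neither of the other tiles higher in DKO, at 35123401 and 35147601, overlapped any peak.

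**Figure D3:**
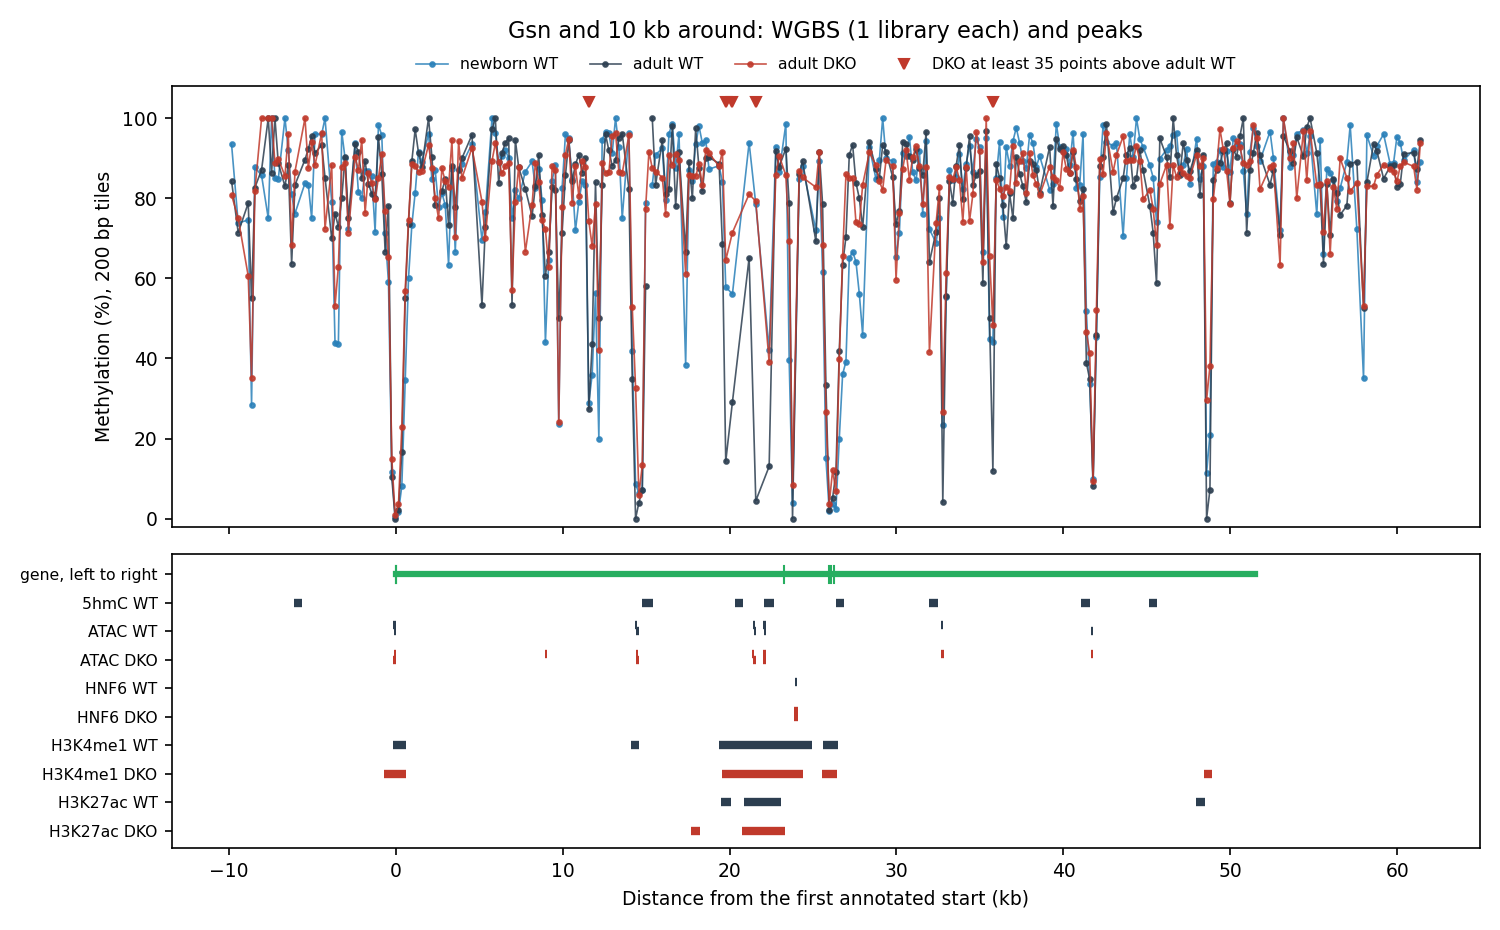
Methylation of 200 bp WGBS tiles (top, percent) in newborn WT, adult WT and adult DKO hepatocytes over *Gsn* and 10 kb around, and peaks of each assay (bottom, 1 lane per assay and genotype, ATAC-Seq and HNF6 with 2 libraries in a lane), against the distance from the first annotated start in kb. Triangles mark the 5 tiles in which DKO exceeded adult WT by at least 35 points; 3 of them lie near 20 kb, under the broad H3K4me1 peak.

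At the first start of *Gsn*, ATAC-Seq peaks were present in all 4 libraries, with 14.5 and 16.2 normalized tags in WT and 12.8 and 20.7 in DKO. H3K4me1 was present in both genotypes (12.1 tags in WT, 27.9 in DKO) and no H3K27ac peak came within 500 bp. ATAC-Seq peaks were at 7 places in the window, 4 of them in every library. H3K27ac peaks were at 4 places, 1 in both genotypes, 1 in DKO alone (35129637-35130137, 6.17 tags) and 2 in WT alone. 5hmC peaks were found at 8 places with 6.35 to 15.5 tags, the strongest at 35132246-35132746, between the tiles named above and overlapping none of them.

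The *Gsn* window held 1 HNF6 site, 23.99 kb into the gene. It was a peak in both DKO libraries (6.73 and 20.8 normalized tags) and in the second WT library (9.18), and not in the first WT library. That library had 4387 peaks, against 9355 in the second WT library and 9305 and 34665 in DKO, so the lists differ in reach.

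By RRBS, 24 tiles of the *Gsn* window had a value in all 10 injected mice, of 69 tiles listed. Their mean was 43.5 and 39.7% in the DKO mice injected at 1 day and 38.4 and 37.9% in those injected at 3 weeks. In controls it was 37.1, 37.2 and 38.5% for injection at 1 day and 34.97, 35.3 and 37.2% for injection at 3 weeks. Within each time of injection every DKO mouse lay above every control.

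The DKO mean was 39.9 ± 2.52% (SD, n = 4) and the control mean 36.7 ± 1.35% (n = 6), a difference of 3.17 points with p = 0.01 in a two-sided exact permutation test within the times of injection, the smallest p that these 100 relabelings allow. Adjusted over the 6 tests of RRBS means at both genes it was 0.06 and did not pass. At 1 day alone the difference was 4.00 points (exact permutation p = 0.1, the smallest possible) and at 3 weeks 2.35 points (exact permutation p = 0.2). Without the tile of the largest difference, a choice made after the values were seen, it was 1.46 points (exact permutation p = 0.13). Without control mouse 1 of those injected at 3 weeks it was 1.29 points (exact permutation p = 0.117), over the tiles with a value in the other 9 mice. The mean over all tiles of the genome also differed between these mice, as given above.

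That tile of *Gsn* lies at chr2:35126301-35126400, 14.4 kb into the gene, and holds the single CpG shown above. It was methylated at 51.7 and 65.3% in DKO mice injected at 1 day, at 39.4 and 21.4% in those injected at 3 weeks, and at 3.17, 0, 0, 0, 0 and 7.69% in the controls. The difference of means was 42.7 points, and the groups did not overlap. It was at 7.84 and 0% in WT mice of 3 weeks, at 0 and 0% in InsR KO mice, at 0% in fat and in the 1 culture with a value, and at 14.8% in neutrophils.

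The *Gsn* tiles on either side were low everywhere, at 0 to 13.9% at 35126201 and at 0 to 11.7% at 35126401. In WGBS the tile at 35126201-35126400, which spans it, had 8.70% in newborn, 0% in adult WT and 32.7% in adult DKO. ATAC-Seq peaks lay over this place in 4 of 4 libraries, the H3K4me1 peak at 35126023-35126523 (6.22 tags) in WT alone, and no H3K27ac peak in either genotype.

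Of the 24 tiles of *Gsn*, 3 had all 4 DKO mice above all 6 controls (3.04% of tiles over the genome) and 0 had all below (0.621%). In 1 of them the means differed by at least 35 points, beside 1.42% over the genome and 1.20% with both features. The other two were neighbours. The tile at 35123701-35123800 was at 84.6, 65.7, 62.6 and 65.4% in DKO mice and at 41.1 to 59.2% in controls, and that at 35123801-35123900 at 76.9 to 87.0% against 61.5 to 76.6%. They lie just after the WGBS tile at 35123401 that was higher in DKO.

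The WT mice of 3 weeks and the controls of 15 weeks differed in more than age, as given below. At 35123701 in *Gsn* the WT mice of 3 weeks had 23.9 and 33.3%, below all 6 controls. The 2 cultures stood lower still over 3 neighbouring tiles, at 11.1 and 14.3%, at 4.17 and 8.82%, and at 9.09 and 3.66%. The last of these, at 35123901, was at 59.6 to 92.2% in every other sample. Fat was at 66.7%, 23.3% and 59.6% over the 3 tiles and neutrophils at 93.5%, 89.4% and 90.2%.

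Over all 24 tiles of *Gsn* the WT mice of 3 weeks averaged 34.4% and the controls 36.7%, a difference of -2.27 points (exact permutation p = 0.179, adjusted over 6 tests 0.345). By animal number, these WT mice are those of RNA libraries 1 and 2 of 3 weeks, with *Xist* at 77.1 and 48.0 FPKM. Among the controls, which were also injected, only mouse 3 of those injected at 3 weeks had *Xist* as high (88.1 FPKM). Age, injection and this difference were not separated in any RRBS comparison of these groups. InsR KO mice differed from controls injected at 1 day by -1.43 points over 21 tiles (exact permutation p = 0.2, where 0.1 is the smallest possible). The tiles at the first start, from 35111801 to 35112100, were at 0 to 2.26% in all samples with a value. Tiles around the start at 35137900 were at 0 to 23.3%.

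**Figure D4:**
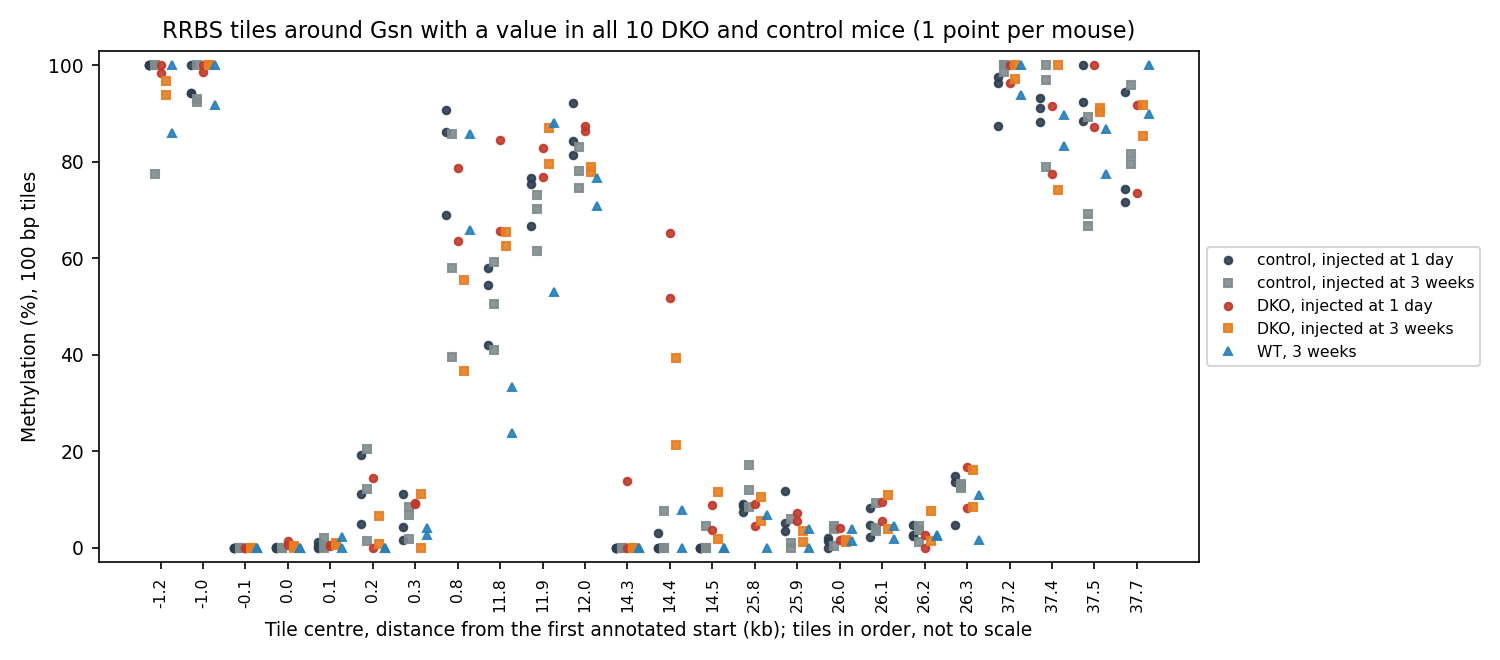
Methylation (percent) of the 24 RRBS tiles of the *Gsn* window that had a value in all 10 injected mice, in order along the gene and labelled by distance from the first annotated start in kb, with 1 point per mouse and the 2 WT mice of 3 weeks beside them. At 14.4 kb the 4 DKO mice lie at 21.4 to 65.3% and the 6 controls at 0 to 7.69%.

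Over the *Tmem86a* window the WGBS means were 67.4% in newborn WT, 67.1% in adult WT and 69.7% in adult DKO over 97 tiles. Loss from newborn to adult WT by at least 35 points was seen in 0 tiles. DKO exceeded adult WT by as much in 3 tiles (3.09%, beside 1.98% over the genome) and was lower in 0. None of the 3 is a tile that lost methylation from newborn to adult WT, and 0 of the 13 tiles inside the gene body alone passed the limit.

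The first is the upstream tile at chr7:54297601-54297800 shown above, 8.3 kb before the start, with 8.70% in newborn, 1.72% in adult WT and 43.4% in adult DKO. It was unmethylated at both ages in WT and partly methylated in DKO. It overlapped an ATAC-Seq peak and an HNF6 peak of 1 DKO library each, a DKO H3K27ac peak and H3K4me1 in both genotypes. The tile at 54310001-54310200, at the end of the gene, had 55.0%, 40.5% and 83.0%, and that at 54314801-54315000 had 23.3%, 26.9% and 69.6% and overlapped no peak. A tile at 54312601-54312800 gained methylation with age (39.4%, 84.5% and 54.9%).

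By RRBS, 4 tiles of the *Tmem86a* window had a value in all 10 injected mice, of 19 listed. The DKO mean was 47.1 ± 2.89% (SD, n = 4) and the control mean 43.7 ± 4.30% (n = 6), a difference of 3.44 points (exact permutation p = 0.23). In 0 of the 4 tiles did DKO mice lie apart from controls. WT mice of 3 weeks differed from controls by 2.60 points over 3 tiles (exact permutation p = 0.571) and InsR KO mice by 0.551 (exact permutation p = 0.9). Around the start, tiles from 54305701 to 54306200 were at 0 to 3.03% with 2 exceptions, 37.5% in 1 DKO mouse injected at 1 day at 54305701 and 7.78% in 1 DKO mouse injected at 3 weeks at 54306001.

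Histone marks at *Tmem86a* were listed as peaks at more places in DKO than in WT. In DKO hepatocytes an H3K27ac peak lay over the start (54305446-54308220, 130.0 tags and 12.53 times the input), with more tags than 84.98% of the peaks in that list. WT had no H3K27ac peak there. A second DKO peak covered the upstream place (54296837-54300709, 125.6 tags), where WT had a small one (54297888-54298388, 8.32 tags, more than 26.0% of its list), and another lay at the end of the gene (54309483-54310600, 15.2 tags).

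H3K4me1 peaks followed the same layout. In DKO they covered the whole gene (54305215-54310567, 105.6 tags), the upstream place (54297748-54300880, 78.3 tags) and 2 further places (25.5 and 22.1 tags). WT had 1 in the window (54297523-54298708, 27.2 tags). An H3K27ac peak within 500 bp of the start in DKO and none in WT was seen at 6.71% of the 10310 tested genes with an annotated start, the reverse at 0.951% and a peak in both at 80.4%. For H3K4me1 the shares were 13.4%, 8.24% and 59.7%. Each mark has 1 library per genotype, so these are values with no test, and the WT libraries had 30031746 and 33777718 tags beside 27544889 and 29365951 in DKO.

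Open chromatin at the start was present in both genotypes. The ATAC-Seq peak there had 25.8 and 37.8 normalized tags in WT and 33.5 and 39.9 in DKO, and these ranges overlap. A peak in every ATAC-Seq library was found at 79.4% of starts, in both DKO libraries and no WT library at 0.369% and the reverse at 0.398%. The second DKO library had 2 more peaks, at 54297636-54297778 (4.65 tags) and 54300211-54300353 (3.43 tags), both under the upstream H3K27ac peak of DKO. HNF6 peaks were found at 3 places (17.9, 10.4 and 9.67 tags) and only in the second DKO library, the one with 34665 peaks, so without that library the window holds 0. 5hmC peaks in WT were at 5 places with 6.74 to 10.7 tags, outside the gene.

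**Figure D5:**
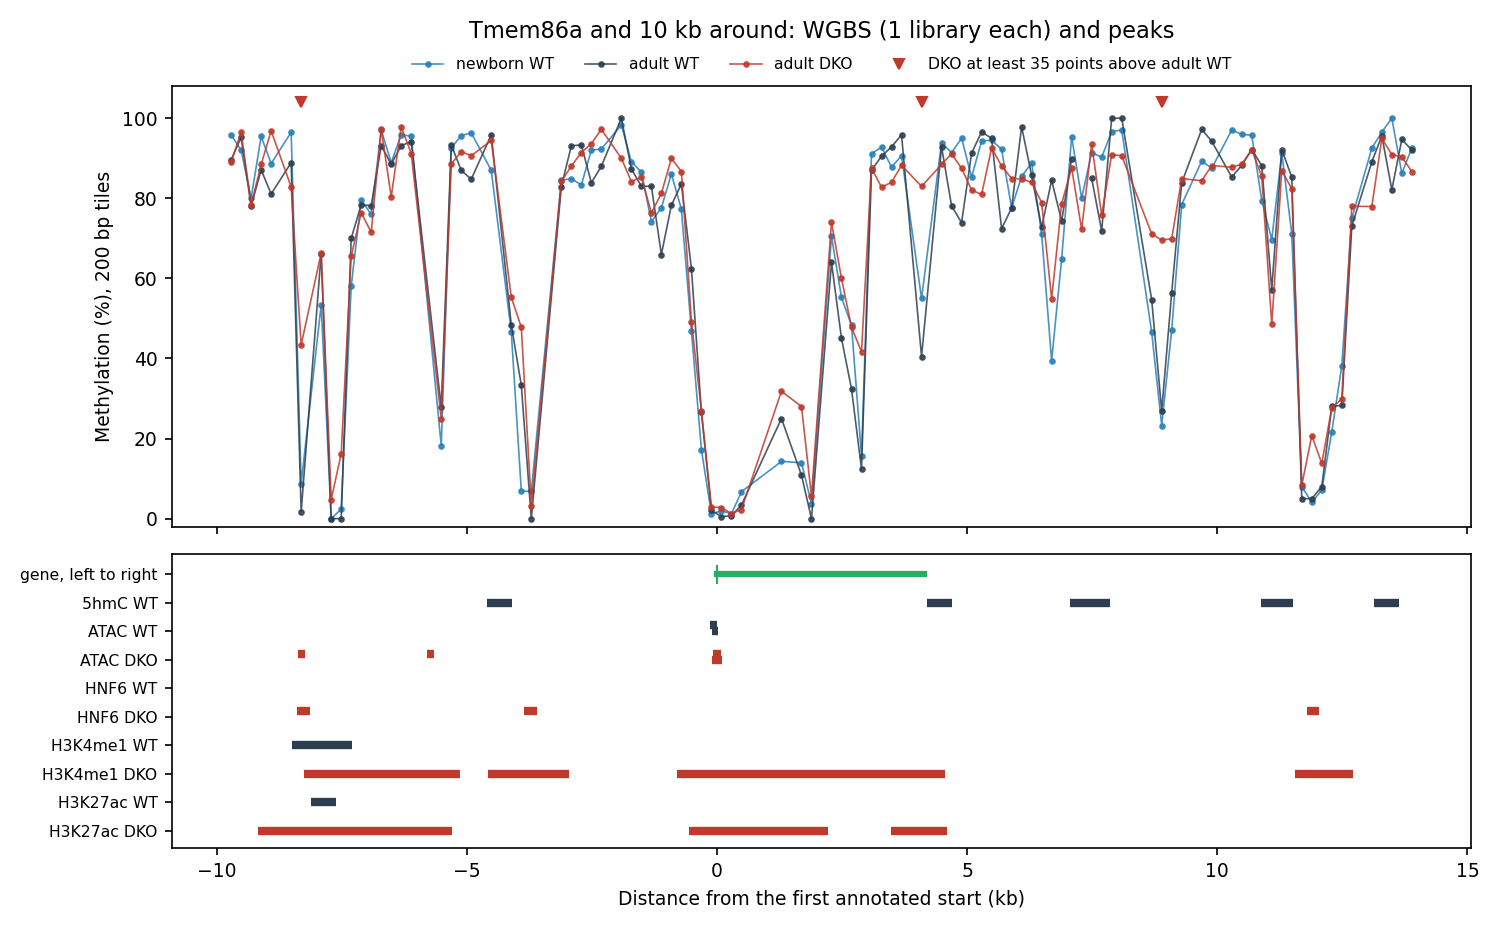
Methylation of 200 bp WGBS tiles (top, percent) in newborn WT, adult WT and adult DKO hepatocytes over *Tmem86a* and 10 kb around, and peaks of each assay (bottom, 1 lane per assay and genotype), against the distance from the start in kb. The start lies in a stretch of low methylation in all 3 libraries, and H3K27ac and H3K4me1 peaks over the start are present in DKO alone, with 130.0 and 105.6 normalized tags.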

How the data were processed

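*Gsn* and *Tmem86a* and the gene lists were chosen with earlier results of these data known. The authors deposited FPKM values per gene (cutadapt 1.15, TopHat2 and Cufflinks, mm9). In it 265 gene names are repeated, and 5063 genes have no value above 0 in the libraries used. Where the mean of some condition reached 1 FPKM, log2(FPKM + 1) was modelled by condition with limma 3.58.1 (R 4.3.3) over the 18 libraries together, with moderated trended variances and Benjamini-Hochberg adjusted p-values over all genes tested. CuffDiff, used in the study, needs reads. An interaction of genotype and time of injection was added after the data were seen. The fit and the permutation test were tested on simulated data. Read counts are not given, and the spacing of low FPKM values gave relative depths of 0.847 to 1.20. Libraries are numbered in column order.

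Methylation was deposited as the fraction of methylated CpG readings per tile (Trim Galore 0.3.3, BSMAP 2.74, mm9), multiplied here to percent. Between 340235 and 611985 RRBS tiles had a value per sample. Coverage is not given, so depth is unknown here and no interval was calculated. Mouse means over tiles with a value in every mouse compared were tested by two-sided exact permutation, within times of injection for DKO. Of 61 RRBS and 24 expression columns, 49 were not used, since their names fit no 1 condition. RRBS columns with only an animal number were assigned where an expression column of that number names the condition.

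Peaks were called by the authors in each library with HOMER findPeaks after Bowtie2 2.2.4, against input for ChIP-Seq. Per the file headers, the normalized tag signal is scaled to a common library total, and fold is the ratio of tags over input or the local region. The deposited peak score was used only to take the peaks above the median of each list. A peak was counted where it overlapped a gene's window. Sequences came from mm9, and every tile in both windows holds a CpG there. Named genes are the 2 members, the 5 genes most like each, the gelsolin family, *Gc*, *Tmem86b*, genes overlapping the windows, *Tet2*, *Tet3*, *Dnmt1*, *Dnmt3a*, listed genes called after injection at 1 day, and *Xist* and *Ddx3y*. *Apof*, *Alb*, *Lss*, *Sqle* and *Dhcr7* were named outside this rule, after their values were seen, and *Dnmt1* and *Dnmt3a* are not described. Some results on listed genes and 1 sequence are not reported here.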

Additional observations from a re-analysis of the deposited data

Results flagged for a closer look

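An interaction term in limma, chosen after the data were seen, asked over all genes tested whether DKO and control differed by more at one time of injection than at the other. It called 599 of 11166 genes, 5.36%. Values here are the difference at 1 day minus that at 3 weeks on the log2(FPKM + 1) scale, and adjusted p-values are from limma. For *Gsn* and *Tmem86a* it was not tested, since they were chosen on these differences.

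*Stom*, the neighbour of *Gsn*, had a lower difference at 1 day than at 3 weeks (-1.36; limma, adjusted p = 0.0322). Among genes of actin filament turnover, *Pfn1* (-1.24; limma, adjusted p = 0.0354), *Cfl1* (-1.08; limma, adjusted p = 0.0481), *Arpc3* (-1.07; limma, adjusted p = 0.0460), *Capzb* (-0.97; limma, adjusted p = 0.0346) and *Arpc1a* (-0.71; limma, adjusted p = 0.0430) differed in the same direction. The fitted difference of each of these 5 was below 0 at 1 day and above 0 at 3 weeks. The Kupffer cell and endothelial marker sums that accompany these genes are given in the report, and their part was not tested.

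Among lipid genes, *Lpl* (2.08; limma, adjusted p = 0.0348), *Lss* (1.12; limma, adjusted p = 0.0423) and *Dhcr7*, another gene of cholesterol synthesis (0.73; limma, adjusted p = 0.0429), had a higher difference at 1 day than at 3 weeks. That of *Lss* and *Dhcr7* was above 0 at 1 day and below 0 at 3 weeks. *Tet2*, whose gene-level values include the exons that the deletion leaves, differed by 1.42 (limma, adjusted p = 0.0337), with 0.79 at 1 day and -0.63 at 3 weeks. *Adrbk2*, *Defb1* and *Rcn2* differed by 1.48, 1.47 and 0.94. They were chosen for their likeness to *Gsn* over these same libraries, so no p is given.

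In RRBS, the gap of the lowest or highest mouse to its nearest neighbour was wide for the range of its group at 3 values, where chance gives about 1 in 20 groups and 12 were examined. At *Tmem86a* control mouse 2 of those injected at 3 weeks was the lowest of 6 controls in the comparison with DKO mice (35.2%) and over the 3 tiles compared with WT mice of 3 weeks (46.1%), which are not independent values. Without it the differences were 1.44 and 0.127 points. At the *Gsn* tile at 35123701, 1 DKO mouse injected at 1 day was at 84.6%, where the other 3 were at 62.6 to 65.7%. The RRBS difference between DKO and control at 1 day minus that at 3 weeks was 1.65 points for *Gsn* (exact permutation p = 0.64) and -2.50 points for *Tmem86a* (exact permutation p = 0.77).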

How the results depend on the processing

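Of 267 alternative values, 210 kept their direction and their side of the threshold or moved by less than the spread. The fall of *Gsn* and *Tmem86a* with age was called in each alternative fit, between -3.23 and -2.52 for *Gsn* and between -1.24 and -1.005 for *Tmem86a* when 1 library was left out. A pseudocount of 0.1 raised the difference in log2 between DKO and control to 5.08 for *Gsn* and 4.23 for *Tmem86a* (injection at 1 day) and to 3.29 and 4.29 (3 weeks). Leaving out 1 library gave 2.97 to 3.19 and 3.12 to 3.49 at 1 day, and 1.60 to 1.84 and 2.68 to 3.53 at 3 weeks. The 1 week levels were 42.9 FPKM for *Gsn* and 15.1 FPKM for *Tmem86a* after scaling to the library median. No paired analysis was possible because the columns carry animal numbers and not the replicate numbers of the labels. This holds for replicates paired between conditions. RNA and methylation can be paired by mouse, since the RRBS columns of injected mice share their animal numbers with expression columns. That pairing was not tested.

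When 1 library was left out, the share of genes called was 23.6 to 33.0% with age, 7.84 to 20.6% at 1 day and 0.475 to 3.70% at 3 weeks. At 1 day 876 genes were called without control library 3, 997 without DKO library 1, 1357 without DKO library 3 and 1529 without control library 1. At 3 weeks 53 were called without DKO library 2, 206 without control library 1 and 325 without DKO library 1. Of genes tested at 3 weeks, 370 (1.91%) were called with no filter, 880 (7.88%) after quantile normalization and 56 (0.560%) with only those 2 conditions in the fit. Quantile normalization brought the share of calls that were higher from 21.7 to 47.1% at 1 day and from 17.2 to 48.6% at 3 weeks, and the median of all genes from -0.11 and -0.07 to -0.01 and 0.01. Leaving out 1 library gave 5 to 18 actin genes called and 3 to 7 ether lipid genes, *Tmem86a* included. At 3 weeks, 1 SREBP2 target was called with a pseudocount of 0.1 and 1 after quantile normalization, which called 2 actin and 1 LXR gene there and 7 LXR genes at 1 day. By Spearman's rho, 2 of the 5 genes most like *Gsn* and 0 of those most like *Tmem86a* were again among the first 5.

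With a limit of 25 points, WGBS tiles of *Gsn* numbered 6 lost, 14 gained, 10 higher and 1 lower in DKO, and with 50 points 1, 0, 2 and 0. For *Tmem86a*, 2 were gained and 1 lower in DKO at 25 points, and 0 were gained or higher in DKO at 50 points or inside the gene body. The RRBS difference of *Gsn* between DKO and controls was 1.46 points without the tile of the largest difference, 2.48 by the median over tiles (exact permutation p = 0.18) and 2.72 over all tiles (exact permutation p = 0.22), and 1.29 to 4.12 when 1 mouse was left out. For WT mice of 3 weeks it was -5.52 by the median (exact permutation p = 0.0357) and -3.82 to -0.714 when 1 mouse was left out, and for InsR KO mice -1.63 to -0.185. Over all tiles of *Gsn* these were -0.0047 and -10.4. For *Tmem86a* over all tiles the sign turned, to -0.614 for DKO, -0.0997 for 3 weeks and -9.69 for InsR KO. When 1 mouse was left out it was 1.44 to 4.90, 0.102 to 5.09 and -1.51 to 1.61. With the peaks above the median score alone, *Gsn* kept 9 places with peaks, 3 of them in every library and 0 in WT alone. Inside the body of *Tmem86a* there were 4 places, 1 in every library and 3 in DKO alone. The cause of these changes was not tested. Coverage unknown for both methylation tables and 1 library per condition in WGBS and histone ChIP-Seq limit what can be told.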
